A study of Mus musculus with 10 samples.

Results

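Extracellular matrix genes were examined in the RNA of splenic CD8+ T cells that had been co-cultured with 4T1, tumor cells of a mouse mammary carcinoma line. The set held 42 genes, chosen by symbol from 57825 listed genes: 8 interstitial collagens, 11 basement membrane genes, 10 matrix glycoproteins and proteoglycans, 4 genes of collagen processing, 6 proteases and 3 protease inhibitors. Of these 42 genes, 26 averaged 0.5 FPKM or more across the 10 samples and were tested, 16 lay below and were not, and 40 were above 0 in at least 1 sample. FPKM scale the fragments of a gene by its length and by the depth of the sample, so levels of different genes can be set side by side.

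A group of 5 samples without sodium acetate (CD8+4T1) was compared with a group of 5 samples with 5 mM sodium acetate (CD8+4T1+NaAc), both labelled day 3. The T cells came from spleens of female Balb/c mice, were activated for 12 h on plates coated with anti-CD3 with IL-2 and anti-CD28, were kept with or without sodium acetate for 24 h and then shared 48 h of culture with 4T1 cells. Both cultures therefore held activated T cells and tumor cells, and a group of T cells alone was not analysed here. RNA was taken from the CD8+ T cells after purification. The labels do not say that the 5 samples of a group came from separate mice, so the p-values measure the spread between these samples.

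The extracellular matrix is the protein and polysaccharide scaffold outside cells. Its basement membranes are sheets under epithelia made of laminin trimers (an alpha, a beta and a gamma chain), a collagen IV network, nidogen and perlecan, whereas interstitial matrix consists of fibrillar collagens made mainly by fibroblasts. Matrix metalloproteinases and the plasminogen activator system cut these proteins, and TIMPs inhibit the metalloproteinases. Carcinoma cells and fibroblasts are rich sources of these transcripts. T cells meet the matrix mainly through integrins and CD44.

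The samples rested on between 16306447 and 18853726 fragments. Genes of the table held 95.5% to 97.9% of these without and 89.8% to 92.1% with sodium acetate, shares that do not overlap, and the summed FPKM of all genes were 310965 to 335151 without and 282995 to 295928 with sodium acetate. The part of this difference in the matrix result was not tested beyond rescaling to the same total. Under that scaling 25 of the 26 matrix genes tested were called, where 40.0% of all genes tested were. Of the samples with sodium acetate, replicate 1 listed 20233 genes above 0, while the other 4 listed 24681 to 25088 and the samples without sodium acetate 22291 to 24054. T cell markers, which check the labelled cell type, were present in every sample: 12 of 12 were tested and their summed level was 840 to 943 FPKM without and 741 to 914 FPKM with sodium acetate. Of these 12, 6 were lower with sodium acetate and 1 was higher, and with every sample at the same total FPKM 4 were lower and 5 higher. Over all genes tested 19.0% were lower and 17.6% higher, and at the same total FPKM 8.83% were lower and 31.2% higher. Markers of epithelial cells and 4T1 cells were present in every sample and moved with the groups. Of 20 such markers 12 were tested, 7 were higher and 0 lower, and at the same total FPKM 10 were higher and 0 lower. Their summed level was 30.3 to 41.1 FPKM without and 93.8 to 208 FPKM with sodium acetate. Krt7 and Cldn3 passed the filter only through the group with sodium acetate, and without rescaling 5 of the other 10 tested were higher. In bulk RNA, more cells of a type and more RNA per cell cannot be told apart.

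With sodium acetate, 25 of the 26 matrix genes tested passed an adjusted p of 0.05 (limma, Benjamini-Hochberg over all genes tested), 24 of them higher and 1 lower, where 36.5% of all genes tested passed, 17.6% higher and 19.0% lower. Fibronectin, both collagen IV chains, laminin beta 1, perlecan, the collagen chaperone Serpinh1 and the metalloproteinases Mmp9 and Mmp3 led the list. Each had a log2 fold change over 3, a size that depends on the 0.1 FPKM added before taking logs and on single samples. With 1 FPKM added Fn1 alone was over 3. Without replicate 2 with sodium acetate 3 genes were over 3 (Col4a2, Fn1 and Lamb1), and without replicate 1 of CD8+4T1 there were 5. A log2 fold change over 1 in the higher direction was reached by 20 of the 26, against 4.87% of all genes tested. Plod2, a lysyl hydroxylase of collagen, was the gene that fell. The median log2 fold change was 2.38 over the 26 genes and -0.02 over all genes tested; with 1 FPKM added the former was 1.52. For 24 of the 26, every sample with sodium acetate lay above every sample without, which was so for 13.1% of all genes tested. Col1a2, Col5a1, Col6a1, Sparc and Mmp3 passed the filter on low values only through the group with sodium acetate. Among the other 21 genes, whose mean without sodium acetate was already at least 0.5 FPKM, 20 were higher, 1 was lower and the median log2 fold change was 2.28. Over all 14952 genes tested that met this condition, 16.0% were higher and the median was -0.04. Without replicate 1 with sodium acetate, 25 of the matrix genes passed the filter and 25 were called.

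**Figure D1:**
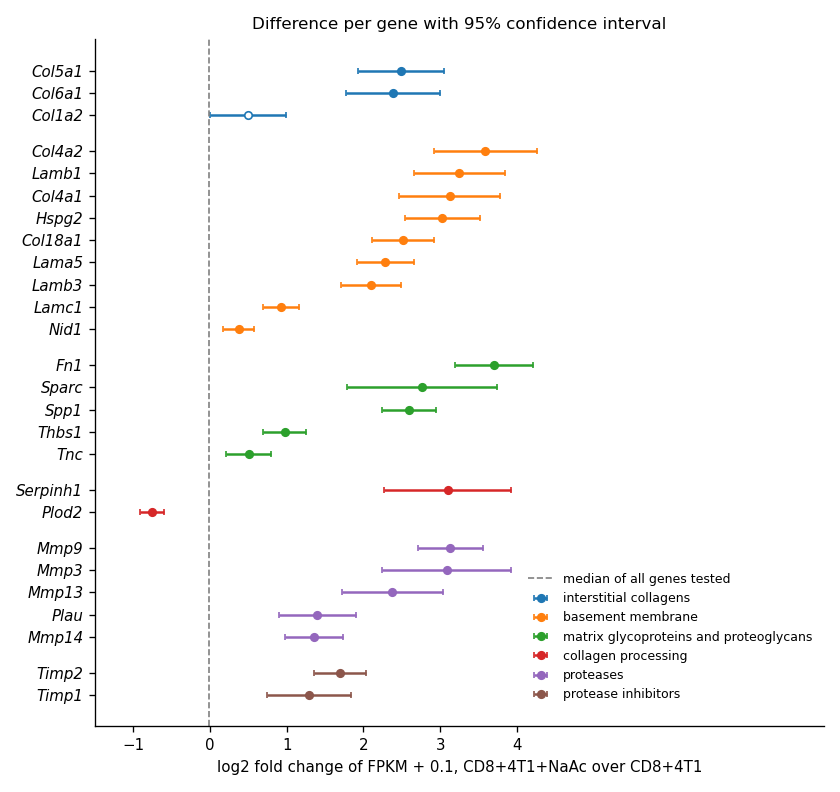
Log2 fold change of FPKM + 0.1 (horizontal axis, CD8+4T1+NaAc over CD8+4T1) with its 95% confidence interval for the 26 matrix genes tested, grouped and coloured by role. Filled points were called at an adjusted p under 0.05 and the open point, Col1a2, was not. The dashed line is the median of all genes tested, -0.02, and Plod2 is the only gene to the left of it.

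Over all genes tested 17.6% were higher and 19.0% lower, which is the background of the counts of each role of the set that follow. Basement membrane genes were the largest group, and 9 of the 11 were tested and 9 were higher. Their summed level was 29.5 to 35.6 FPKM without and 79.5 to 146 FPKM with sodium acetate. The paired collagen IV genes Col4a1 (ENSMUSG00000031502, chromosome 8, 11248423 to 11362826, minus strand) and Col4a2 (ENSMUSG00000031503, chromosome 8, 11362805 to 11499287, plus strand) encode the chains of the common collagen IV trimer and lie head to head, sharing 22 bases. Col4a1 was at 0.85, 1.15, 1.05, 2.21 and 1.92 FPKM in the 5 samples without and at 13.2, 18.5, 11.9, 14.9 and 7.11 FPKM in the 5 samples with sodium acetate (log2 fold change 3.12 ± 0.30 (SE), adjusted p = 4.43e-05). Col4a2 was at 0.877, 1.07, 0.769, 1.86 and 1.85 FPKM without and at 17.3, 23.1, 14.8, 18.1 and 8.56 FPKM with sodium acetate (log2 fold change 3.59 ± 0.30 (SE), adjusted p = 2.78e-05). Both genes were highest in the same sample, replicate 2 with sodium acetate, and lowest among the samples with sodium acetate in replicate 5, which still exceeded every sample without. Col18a1, whose product carries endostatin at its end, was at 0.827, 0.776, 0.90, 1.22 and 1.17 FPKM without and at 6.47, 7.84, 5.4, 6.74 and 4.13 FPKM with sodium acetate (log2 fold change 2.51 ± 0.18 (SE), adjusted p = 1.43e-05).

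The laminin chains differed in level and in size of change. Laminin alpha 5, encoded by Lama5 (ENSMUSG00000015647, chromosome 2, 179818166 to 179867652, minus strand), is the alpha chain of laminins of epithelial basement membranes. Its level was 5.21, 4.24, 4.37, 5.43 and 5.0 FPKM without and 24.1, 31.1, 22.4, 29.7 and 15.6 FPKM with sodium acetate (log2 fold change 2.28 ± 0.17 (SE), adjusted p = 1.54e-05). Lamb1, the beta 1 chain, was at 1.1, 1.22, 0.89, 1.98 and 2.24 FPKM without and at 12.8, 20.4, 13.6, 17.3 and 9.45 FPKM with sodium acetate (log2 fold change 3.25 ± 0.27 (SE), adjusted p = 2.4e-05). The beta 3 chain of laminin 332, Lamb3, was at 0.661, 0.65, 0.714, 0.872 and 0.687 FPKM without and at 2.84, 5.01, 3.12, 3.82 and 2.56 FPKM with sodium acetate (log2 fold change 2.09 ± 0.18 (SE), adjusted p = 2.43e-05). For each of these chains the lowest sample with sodium acetate stood above the highest sample without. Lamc1, the gamma 1 chain that joins most alpha and beta chains, was already at 7.46 to 9.16 FPKM without sodium acetate. It was at 17.2, 18.6, 15.6, 17.1 and 12.2 FPKM in the samples with sodium acetate and at 8.18, 7.46, 8.55, 8.61 and 9.16 FPKM in those without (log2 fold change 0.92 ± 0.11 (SE), adjusted p = 0.000102). Lamc1 did not overlap between the groups either, and replicate 5 was the lowest sample with sodium acetate for all of these laminin genes. Lama3, the alpha 3 chain and partner of Lamb3, was not tested and lay at 0.103 to 0.217 FPKM without and 0.152 to 0.316 FPKM with sodium acetate, ranges that overlap. Lamb3 shares bases with Hsd11b1 on the opposite strand and with 4930570N18Rik and Gm37691 on its own, and how reads of the latter were divided is not given. Col18a1 shares bases with Slc19a1 on the opposite strand. The strand setting of the counting is not given in the sources used here, and without strand the reads of partners on opposite strands cannot be told apart.

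Perlecan and the nidogens link the laminin and collagen IV networks. Hspg2, which encodes perlecan, was at 0.658, 0.607, 0.52, 0.671 and 0.806 FPKM without and at 7.23, 8.46, 5.16, 6.98 and 3.46 FPKM with sodium acetate (log2 fold change 3.03 ± 0.22 (SE), adjusted p = 1.46e-05). Nid1 was among the most abundant members without sodium acetate, at 11.7, 11.8, 12.5, 12.3 and 11.4 FPKM, and was at 18.3, 12.1, 16.3, 15.8 and 15.8 FPKM with sodium acetate (log2 fold change 0.38 ± 0.09 (SE), adjusted p = 0.00887). It was the single called gene of the set whose groups overlapped, because replicate 2 with sodium acetate, the highest sample for most other members, was the lowest here. Nid2 was not tested, with 12 to 33 fragments per sample without and 34 to 52 with sodium acetate, and it shares 437 bases with Rtraf on the opposite strand.

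**Figure D2:**
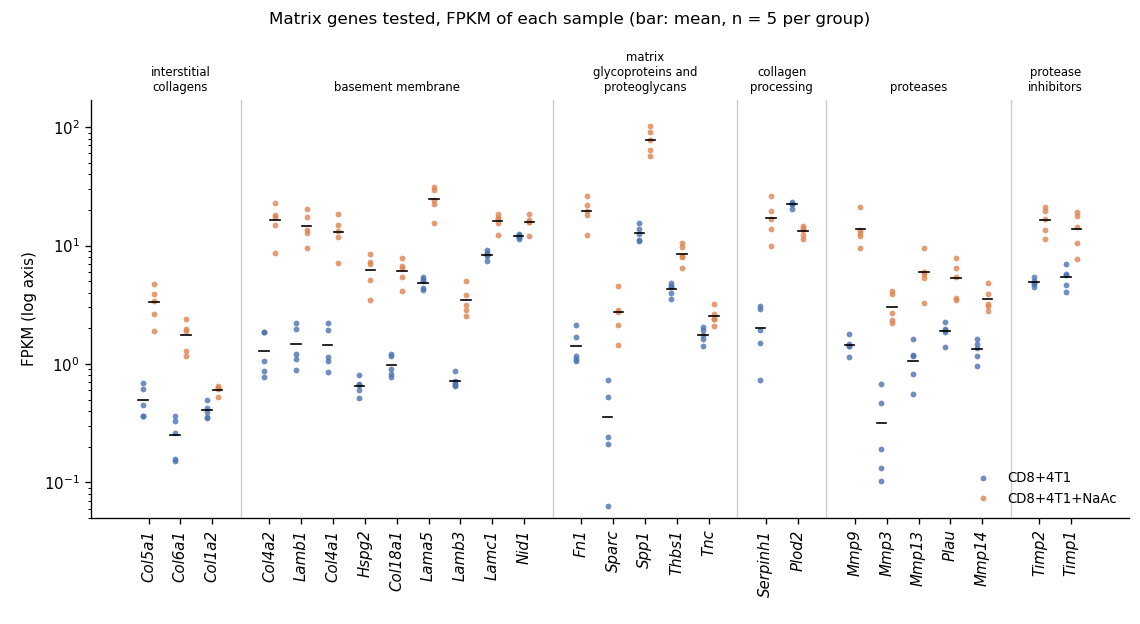
FPKM of each of the 10 samples (vertical log axis) for the 26 matrix genes tested, grouped by role and ordered by log2 fold change. Points are samples and bars are group means. The samples with sodium acetate lie above the others for 24 genes, the groups overlap for Nid1 and the order is reversed for Plod2, which lies at 20.4 to 23.4 FPKM without and 11.4 to 14.7 FPKM with sodium acetate.

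Upstream sequences were taken for the higher genes because many of them moved together. RefSeq windows of the 250 bases before the start (GRCm38.p6) were at hand for 26 of the 42 genes, 19 of which were called higher. Both strands were searched for 5 motifs, none of which contains another. The TATA box was read as TATAAA. The site of AP-1, a transcription factor of Fos and Jun proteins, was read as TGANTCA. The GC box was read as GGGCGG. The site of the factor NF-Y was read as CCAAT. The site of TEAD factors was read as GGAATG. A GC box was present in 12 of the 19 windows and in 32.9% of 27025 promoter windows of the same length, and an NF-Y site was present in 9 of 19 and in 34.5% of all. A TATA box was found in 4 of 19, namely Tnc, Spp1, Mmp3 and Mmp13, against 13% of all windows, an AP-1 site in 3 of 19 (Col6a1, Mmp3 and Mmp13) against 6.87%, and a TEAD site in 2 of 19 (Nid1 and Timp1) against 12.6%. The counts are small and are given as a description.

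The windows of Lama5 and Hspg2 show the GC-rich kind of promoter among the basement membrane genes, with 72.4% and 70.0% G or C and 4 and 5 GC boxes (capitals, read on either strand). The Lama5 window is chr2:180225860-180226109, minus strand, and the Hspg2 window is chr4:137468553-137468802, plus strand.
Lama5: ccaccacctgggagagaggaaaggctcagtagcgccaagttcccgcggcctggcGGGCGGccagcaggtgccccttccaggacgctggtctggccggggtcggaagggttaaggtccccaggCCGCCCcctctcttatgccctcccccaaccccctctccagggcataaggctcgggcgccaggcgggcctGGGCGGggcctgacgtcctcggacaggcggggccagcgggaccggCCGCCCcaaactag
Hspg2: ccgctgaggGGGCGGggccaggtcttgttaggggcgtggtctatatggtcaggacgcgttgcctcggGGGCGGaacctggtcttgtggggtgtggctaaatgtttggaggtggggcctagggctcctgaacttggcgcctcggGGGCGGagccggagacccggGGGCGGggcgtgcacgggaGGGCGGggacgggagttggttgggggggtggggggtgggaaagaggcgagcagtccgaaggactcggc

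Mmp3 and Mmp13, both on chromosome 9, show the other kind, with 37.6% and 40.4% G or C, no GC box, and an AP-1 site followed by a TATA box (both in capitals). The AP-1 site begins 46 bases before the RefSeq start of Mmp3 and 35 bases before that of Mmp13. The TATA box begins 7 bases before the RefSeq start of Mmp3 and 16 bases before that of Mmp13. Where transcription starts in these samples was not tested. The Mmp3 window is chr9:7445572-7445821, plus strand, and the Mmp13 window is chr9:7272264-7272513, plus strand.
Mmp3: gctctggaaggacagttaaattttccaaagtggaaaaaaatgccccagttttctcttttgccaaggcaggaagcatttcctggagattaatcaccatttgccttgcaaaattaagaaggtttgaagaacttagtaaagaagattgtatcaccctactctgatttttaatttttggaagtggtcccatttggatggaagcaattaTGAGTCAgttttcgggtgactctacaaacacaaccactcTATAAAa
Mmp13: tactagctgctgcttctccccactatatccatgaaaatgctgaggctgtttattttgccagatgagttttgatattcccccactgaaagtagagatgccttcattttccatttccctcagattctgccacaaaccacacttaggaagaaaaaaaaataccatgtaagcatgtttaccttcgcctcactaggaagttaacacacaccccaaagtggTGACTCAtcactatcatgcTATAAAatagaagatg

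All 5 matrix glycoproteins tested were higher, of which Sparc passed the filter only through the group with sodium acetate. Fibronectin, encoded by Fn1 (ENSMUSG00000026193, chromosome 1, 71624679 to 71692359, minus strand), is the cell-adhesive glycoprotein that integrins assemble into fibrils. Fn1 had the largest log2 fold change of the set, from 1.09, 1.17, 1.05, 1.69 and 2.14 FPKM without to 19.5, 26.3, 18.2, 21.9 and 12.3 FPKM with sodium acetate (log2 fold change 3.70 ± 0.23 (SE), adjusted p = 9.29e-06). By level it moved from rank 15 to rank 3 of the 42 genes. Osteopontin, encoded by Spp1 (ENSMUSG00000029304, chromosome 5, 104582984 to 104588916, plus strand), is a secreted phosphoprotein made by carcinoma cells, macrophages and activated T cells. Spp1 was at 11, 11, 13.7, 15.5 and 12.4 FPKM without and at 63.7, 101, 78.6, 91.8 and 57.1 FPKM with sodium acetate (log2 fold change 2.60 ± 0.16 (SE), adjusted p = 9.12e-06). It was the most abundant member with sodium acetate and ranked behind Plod2 alone without. Sparc, a collagen-binding glycoprotein, was at 0.0632, 0.212, 0.243, 0.737 and 0.528 FPKM without and at 2.83, 4.52, 2.14, 2.75 and 1.43 FPKM with sodium acetate (log2 fold change 2.76 ± 0.44 (SE), adjusted p = 0.000702). The low end of Sparc without sodium acetate rested on few fragments, 4 to 46 per sample.

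Smaller changes were seen for the adhesion-modulating glycoproteins. Thbs1, which encodes thrombospondin 1, was at 3.54 to 4.85 FPKM without and 6.5 to 10.4 FPKM with sodium acetate (log2 fold change 0.97 ± 0.13 (SE), adjusted p = 0.000247). Tenascin C, encoded by Tnc, was at 1.41 to 2.07 FPKM without and 2.1 to 3.18 FPKM with sodium acetate (log2 fold change 0.50 ± 0.13 (SE), adjusted p = 0.0133). The annotation lists 8030451A03Rik on the opposite strand over most of Tnc. Neither gene overlapped between the groups. Tgfbi, an adhesion protein induced by TGF-beta, was not tested and had 0 to 1 fragments per sample without and 5 to 16 with sodium acetate. The small leucine-rich proteoglycans of connective tissue were near 0: Lum had at most 15 fragments in a sample, Dcn at most 4 and Bgn at most 3. Periostin, encoded by Postn and made by fibroblasts, was at 0 in all 10 samples.

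Interstitial collagens stayed at low levels in both groups, with a summed level of 1.31 to 1.88 FPKM without and 4.54 to 8.44 FPKM with sodium acetate. Of the 8 genes 3 were tested, all 3 only through the group with sodium acetate where they are high, so that the 2 called higher are a description of their levels. Col5a1, a fibril-nucleating collagen, was at 0.364, 0.362, 0.451, 0.695 and 0.609 FPKM without and at 3.4, 4.73, 2.66, 3.92 and 1.89 FPKM with sodium acetate (log2 fold change 2.49 ± 0.26 (SE), adjusted p = 5.97e-05). Col6a1, a chain of microfibrillar collagen VI, was at 0.26, 0.157, 0.364, 0.152 and 0.332 FPKM without and at 1.28, 2.4, 1.91, 1.97 and 1.17 FPKM with sodium acetate (log2 fold change 2.39 ± 0.28 (SE), adjusted p = 0.00011). The partner chain of each was lower in level. Col6a2 had 3 to 23 fragments per sample without and 23 to 63 with sodium acetate, and Col5a2 had at most 1 fragment in any sample.

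Collagen I is the main fibrillar collagen of fibroblasts. Col1a2 was at 0.351 to 0.496 FPKM without and 0.525 to 0.653 FPKM with sodium acetate, ranges that do not overlap, yet it did not pass the test (log2 fold change 0.49 ± 0.23 (SE), adjusted p = 0.112, 95% confidence interval -0.01 to 0.99). It was the only tested member that was not called, and it was called with limma without trend and robust moderation (adjusted p = 0.00237), with sample weights (adjusted p = 0.0424) and with voom on recovered fragments (adjusted p = 0.00379); over the alternatives that kept all samples its adjusted p ran from 0.00237 to 0.201. Col1a1 was below the filter, with 18 to 32 fragments per sample without and 42 to 67 with sodium acetate. Col3a1, the collagen of loose connective tissue, was at 0 in all samples, and Col12a1 was at 0.106 to 0.245 FPKM without and 0.073 to 0.124 FPKM with sodium acetate.

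Collagen processing held the gene that fell and one of those that rose most. Serpinh1 encodes HSP47, the chaperone of procollagen in the endoplasmic reticulum. It was at 0.735, 1.95, 1.51, 2.88 and 3.08 FPKM without and at 13.7, 26, 16.7, 19.6 and 9.88 FPKM with sodium acetate (log2 fold change 3.10 ± 0.37 (SE), adjusted p = 0.000169). Plod2 (ENSMUSG00000032374, chromosome 9, 92424276 to 92490481, plus strand) hydroxylates lysines of collagen telopeptides and is also a known hypoxia-response gene. Plod2 was at 23.4, 22.6, 22.5, 20.4 and 22.5 FPKM without and at 13.4, 12.3, 14.7, 11.4 and 14.1 FPKM with sodium acetate (log2 fold change -0.76 ± 0.07 (SE), adjusted p = 3.95e-05), so that it fell from rank 1 to rank 12 of the 42 genes. Every sample with sodium acetate lay below every sample without. The lysyl oxidases of the set, which cross-link collagen, were near 0: Lox had at most 3 fragments in a sample and Loxl2 at most 16.

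All 5 proteases tested were higher, of which Mmp3 was tested only through its level with sodium acetate, and their summed level, with Mmp2 included, was 5.01 to 7.53 FPKM without and 21.4 to 47.4 FPKM with sodium acetate. Mmp9 (ENSMUSG00000017737, chromosome 2, 164782700 to 164797770, plus strand) encodes gelatinase B, which cuts denatured collagen and collagen IV. It was at 1.13, 1.41, 1.47, 1.42 and 1.8 FPKM without and at 12, 21.3, 13.6, 12.8 and 9.51 FPKM with sodium acetate (log2 fold change 3.13 ± 0.19 (SE), adjusted p = 9.05e-06). Mmp3, stromelysin 1, was at 0.133, 0.191, 0.102, 0.472 and 0.673 FPKM without and at 2.21, 3.89, 4.14, 2.69 and 2.34 FPKM with sodium acetate (log2 fold change 3.08 ± 0.38 (SE), adjusted p = 0.000164). The Mmp3 samples without sodium acetate held 3 to 20 fragments each. Mmp13, the main interstitial collagenase of mice, was at 0.56, 1.16, 0.826, 1.18 and 1.61 FPKM without and at 5.78, 9.48, 5.3, 6.02 and 3.29 FPKM with sodium acetate (log2 fold change 2.37 ± 0.30 (SE), adjusted p = 0.000176).

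The membrane-bound and serine proteases had smaller log2 fold changes than the secreted metalloproteinases tested. Mmp14, a transmembrane metalloproteinase that activates pro-MMP2, was at 0.964, 1.38, 1.17, 1.63 and 1.47 FPKM without and at 3.22, 4.79, 3.1, 3.91 and 2.79 FPKM with sodium acetate (log2 fold change 1.36 ± 0.17 (SE), adjusted p = 0.000187). Mmp14 shares 297 bases with a gene without a symbol on its own strand, and how their reads were divided is not given. Plau, the urokinase plasminogen activator, was at 2.28, 1.94, 1.4, 1.87 and 1.97 FPKM without and at 3.58, 7.91, 5.4, 6.49 and 3.43 FPKM with sodium acetate (log2 fold change 1.40 ± 0.23 (SE), adjusted p = 0.000818). Mmp2, the substrate of MMP14 and gelatinase A of fibroblasts, had at most 8 fragments in any sample. Whether the changes of these genes differ from each other was not tested.

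Of the 3 inhibitors of metalloproteinases, Timp1 and Timp2 were tested and higher. Timp2, which also takes part in pro-MMP2 activation, was at 4.73, 4.46, 4.85, 5.42 and 4.98 FPKM without and at 13.5, 21.2, 16.9, 19.5 and 11.3 FPKM with sodium acetate (log2 fold change 1.70 ± 0.15 (SE), adjusted p = 3.26e-05). Timp1 was at 4.65, 5.75, 4.07, 7.04 and 5.66 FPKM without and at 10.5, 19.1, 14.5, 17.8 and 7.66 FPKM with sodium acetate (log2 fold change 1.29 ± 0.25 (SE), adjusted p = 0.00234). Timp1 lies within Syn1 on the opposite strand. Timp3, the matrix-bound inhibitor, was below the filter at 0.279 to 0.456 FPKM without and 0.402 to 0.595 FPKM with sodium acetate.

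Ratios between members differed between the groups. They are given as descriptions over 5 samples each, because the genes had been seen to change by different amounts. Col4a2 over Col4a1 was 0.731 to 1.03 without and 1.2 to 1.31 with sodium acetate. Lama5 over Lamc1 was 0.511 to 0.638 without and 1.27 to 1.74 with sodium acetate. Lamb1 over Lamc1 was 0.104 to 0.244 without and 0.747 to 1.1 with sodium acetate. Laminin transcripts thus had an excess of the gamma 1 chain over either partner in every sample without sodium acetate, and levels of Lamb1 and Lamc1 of similar size with it. The summed metalloproteinases of the set over the summed TIMPs were 0.284 to 0.505 without and 0.671 to 0.970 with sodium acetate. Among the genes of the set, TIMP transcripts were thus the more abundant in all 10 samples. This order depends on the genes summed, since Mmp10 and Mmp28 lie outside the set. In replicate 2 with sodium acetate the sums were 39.5 FPKM for the metalloproteinases and 40.8 FPKM for the TIMPs, and Mmp10 was at 4.71 FPKM. Col1a2 over Col1a1 was 1.44 to 3.02 without and 1.01 to 1.62 with sodium acetate, which overlap.

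**Figure D3:**
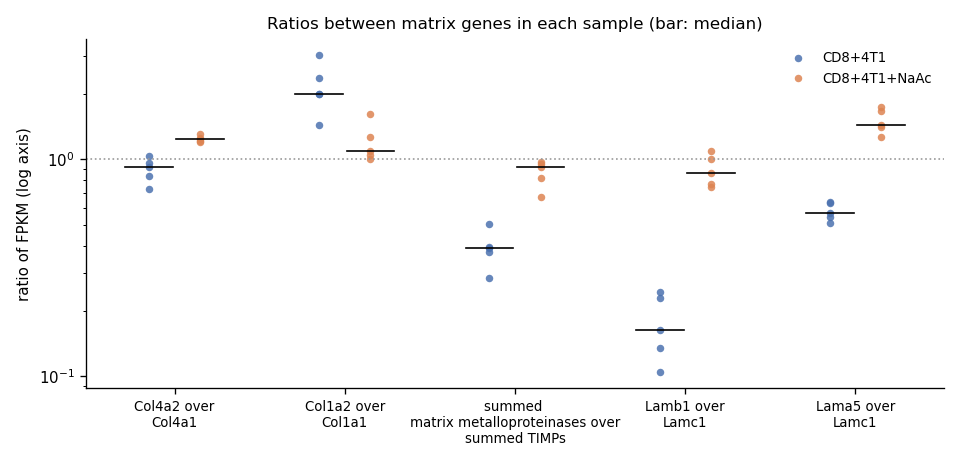
Ratios of FPKM between matrix genes (vertical log axis) in each of the 10 samples, for 5 pairs of genes or sums. Points are samples, bars are medians and the dotted line marks a ratio of 1. The groups are separate for every ratio but Col1a2 over Col1a1.

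Below the filter, 4 of the 16 genes not tested (Col1a1, Col6a2, Nid2 and Tgfbi) had every sample with sodium acetate above every sample without, which was so for 1.18% of all 42115 genes not tested and for 497 of the 16562 of these with a value above 0 in any sample. The other 12 overlapped between the groups or were at 0. No test and no fold is given for these genes.

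The size of the matrix signal varied among the samples with sodium acetate, and the summed epithelial markers ranked these samples in the same order. The summed level of the 42 genes was 303, 425, 320, 369 and 229 FPKM in the 5 samples with sodium acetate and 89.8 to 105 FPKM in those without. The summed level of the 20 epithelial and 4T1 cell markers was 98.1, 208, 135, 159 and 93.8 FPKM in the same 5 samples. Of the 20 members higher by a log2 fold change over 1, 19 were highest in replicate 2 and 19 lowest in replicate 5 among the samples with sodium acetate. Of the 7 epithelial markers that were higher, 6 were highest in replicate 2 and 5 lowest in replicate 5. Summed T cell markers did not share this order, at 741, 815, 856, 864 and 914 FPKM. How many of all genes were highest in replicate 2 or lowest in replicate 5 is not given, so the counts are a description only. Krt8, a keratin of simple epithelia, was at 1.77, 2.78, 2.16, 4.74 and 5.66 FPKM without and at 26.4, 53.5, 30.7, 40.3 and 19.96 FPKM with sodium acetate (log2 fold change 3.33 ± 0.35 (SE), adjusted p = 8.1e-05). Lcn2, a secreted iron-siderophore carrier made by mammary carcinoma cells, was at 2.65, 4.15, 2.41, 5.85 and 4.87 FPKM without and at 25.2, 63.7, 40.4, 47.5 and 24.4 FPKM with sodium acetate (log2 fold change 3.28 ± 0.32 (SE), adjusted p = 5.33e-05). The part of tumor cell RNA in the matrix result was not tested.

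**Figure D4:**
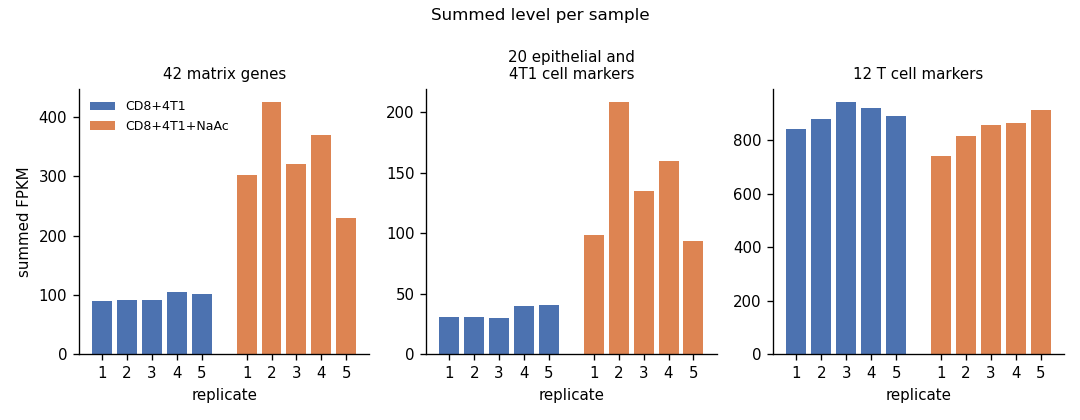
Summed FPKM per sample (vertical axis) for the 42 matrix genes, 20 epithelial and 4T1 cell markers and 12 T cell markers, by replicate number. Replicate 2 is the highest and replicate 5 the lowest of the samples with sodium acetate for the matrix genes and the epithelial markers, whereas the T cell markers range from 741 to 914 FPKM.

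At the same total FPKM, 10 of the 12 epithelial and 4T1 cell markers tested were higher, where 31.2% of all genes tested were. Without that rescaling, other epithelial markers missed the threshold. Epcam was at 0.327 to 0.911 FPKM without and 0.506 to 0.911 FPKM with sodium acetate (adjusted p = 0.305, limma), and so did Cldn7, Perp, Dsp and Muc1. Set against the summed epithelial and 4T1 cell markers of the same sample, 11 of the 26 members were above without overlap in the samples with sodium acetate, 8 were below and 7 overlapped. Fn1, Col4a2, Mmp3, Lamb1, Hspg2, Mmp9, Col4a1, Serpinh1, Col5a1, Col18a1 and Spp1 were above, with Fn1 higher by 1.85 and Spp1 by 0.65 on the log2 scale per unit of marker level. Plod2, Nid1, Tnc, Col1a2, Lamc1, Thbs1, Timp1 and Plau were below. Without Lcn2, the most abundant marker, the counts were 15 above, 5 below and 6 overlapping, so the split depends on the markers that are summed. Col5a1 and Mmp3, among those above, and Col1a2, among those below, passed the filter only through the group with sodium acetate. These ratios were not tested. The share of all genes tested that lies above or below on this scale is not given, so the counts are a description only. The sum also holds markers that were not called, so a gene above it need not have risen more than each marker. Group means with over without sodium acetate were 9.98 for Krt8, 10.1 for Lcn2, 12.5 for Krt7 and 7.83 for Krt18. They were 6.17 for Spp1, 6.25 for Col18a1 and 13.8 for Fn1.

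Markers of other cell types that could be present were also read, where 17.6% of all genes tested were higher and 19.0% lower. Of 11 fibroblast and mural cell markers, Pdgfra alone was tested, passing the filter only through the group with sodium acetate, and was higher, at 0.0686 to 0.227 FPKM without and 0.583 to 1.7 FPKM with sodium acetate (log2 fold change 2.32 ± 0.35 (SE), adjusted p = 0.000527). The summed level of these 11 was 0.725 to 1.28 FPKM without and 1.98 to 3.37 FPKM with sodium acetate, with Tcf21 at 0 in all samples and Dpt, Pi16, Fap and Clec3b below the filter. Of 7 endothelial markers 2 were tested and higher, Egfl7 and Pecam1, the second of which T cells also carry, and the summed level was 8.22 to 9.01 FPKM without and 12.4 to 14.2 FPKM with sodium acetate. Emcn was at 0 in all samples. Of 10 macrophage and monocyte markers 3 were tested and Lyz2 alone was higher, C1qb was at 0, and the summed level was 25.2 to 34.5 FPKM without and 25.8 to 29.8 FPKM with sodium acetate. Of 7 neutrophil markers S100a8 alone was tested, again only through the group with sodium acetate, and was higher. S100a9 was at 0, and the summed level was 0.758 to 1.2 FPKM without and 2.19 to 4.77 FPKM with sodium acetate. Of 6 dendritic cell markers 2 were tested and of 5 B cell markers 2, of which 0 were called (1, a B cell marker, at a common FPKM total), with Siglech at 0. Of 4 CD4 T cell and NK cell markers Cd4 alone was tested and was higher. The part of these cells in the matrix result was not tested.

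Of 116 further matrix genes 72 were tested, 48 were higher, 8 were lower and 16 were not called, and their median log2 fold change was 0.55. Over all genes tested 17.6% were higher and 19.0% lower, which is also the background of the counts of the single lists that follow. After scaling the samples to 1 common FPKM total, an alternative chosen for these lists after seeing the data, 53 of the 72 were higher and 6 lower, where 31.2% of all genes tested were higher and 8.83% lower. Of the 72, Col8a1, Fbln2, P3h2, Mmp10, Mmp28, Plat, Itga2 and Sdc2 passed the filter only through the group with sodium acetate, where they are high. Among the other 64 tested, 40 were higher, 8 lower and 16 not called, with a median of 0.46, where 16.0% of all genes tested on that condition were higher. Of 16 other collagens 3 were tested and 3 were higher. Col16a1, a fibril-associated collagen, was at 0.282 to 0.88 FPKM without and 3.26 to 8.51 FPKM with sodium acetate (log2 fold change 3.26 ± 0.31 (SE), adjusted p = 3.84e-05). Col8a1, the short-chain collagen VIII, had a log2 fold change of 2.84 ± 0.28 (SE, adjusted p = 4.89e-05) and Col7a1, the anchoring-fibril collagen of epithelia, of 1.92 ± 0.17 (SE, adjusted p = 3.26e-05).

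Among 31 other laminins and glycoproteins 14 were tested, 12 were higher and 2 lower. Fbln2, a fibulin of basement membranes, passed the filter only through the group with sodium acetate and was at 0.272 to 0.799 FPKM without and 3.56 to 7.95 FPKM with sodium acetate (log2 fold change 3.35 ± 0.27 (SE), adjusted p = 2.07e-05). The matricellular protein Ccn1 had a log2 fold change of 2.71 ± 0.25 (SE, adjusted p = 3.81e-05) and the laminin beta 2 chain Lamb2 one of 2.39 ± 0.27 (SE, adjusted p = 8.72e-05). Milk fat globule protein Mfge8 was higher by 1.05 ± 0.09 (SE, adjusted p = 2.17e-05). The summed level of the list nevertheless was 423 to 485 FPKM without and 347 to 372 FPKM with sodium acetate. This sum was carried by serglycin, the granule proteoglycan of lymphocytes encoded by Srgn and named after its values were seen, which was at 352 to 417 FPKM without and 215 to 243 FPKM with sodium acetate (log2 fold change -0.71 ± 0.06 (SE), adjusted p = 3.26e-05).

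Of 19 other processing enzymes 17 were tested, 11 were higher and 4 lower. Pcolce, an enhancer of procollagen cleavage, had a log2 fold change of 2.04 ± 0.23 (SE, adjusted p = 8.65e-05), Fkbp10, a collagen prolyl isomerase, one of 1.52 ± 0.17 (SE, adjusted p = 8.19e-05) and Loxl4, a lysyl oxidase that cross-links collagen, one of 1.51 ± 0.20 (SE, adjusted p = 0.000213). Those that fell, named after their values were seen, were P4ha1, P4ha2, Ppib and Tgm2, of which P4ha2 and Ppib were no longer called at the same total FPKM. P4ha1, a prolyl hydroxylase of collagen and like Plod2 known as a hypoxia-response gene, was at 63.1 to 70.8 FPKM without and 40.01 to 48 FPKM with sodium acetate (log2 fold change -0.64 ± 0.06 (SE), adjusted p = 3.65e-05). The prolyl 3-hydroxylase P3h2 was at 0.115 to 0.408 FPKM without and 0.696 to 1.35 FPKM with sodium acetate and higher (log2 fold change 1.43 ± 0.33 (SE), adjusted p = 0.00573), and it passed the filter only through the latter group.

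Of 30 other proteases and inhibitors 21 were tested, 9 were higher and 2 lower. Stromelysin 2, encoded by Mmp10, was at 0.133 to 0.282 FPKM without and 0.909 to 4.71 FPKM with sodium acetate (log2 fold change 2.94 ± 0.37 (SE), adjusted p = 0.000174). Plat, the tissue plasminogen activator, had a log2 fold change of 2.17 ± 0.31 (SE, adjusted p = 0.00036). Both passed the filter only through the group with sodium acetate, and without the 3 such genes of the list 6 of 18 tested were higher. The urokinase receptor Plaur, named after its values were seen, fell (log2 fold change -0.76 ± 0.07 (SE), adjusted p = 4.21e-05), so that Plau was higher while its receptor was lower.

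Of 20 matrix receptors 17 were tested, 13 were higher and 0 lower. Ddr2, a collagen-binding receptor tyrosine kinase, was at 0.298 to 0.693 FPKM without and 2.2 to 5.68 FPKM with sodium acetate (log2 fold change 2.83 ± 0.27 (SE), adjusted p = 4.32e-05). The syndecan Sdc2 had a log2 fold change of 2.86 ± 0.30 (SE, adjusted p = 7.24e-05), the integrin subunit Itgb5 one of 2.65 ± 0.23 (SE, adjusted p = 2.71e-05) and the collagen-binding subunit Itga2 one of 2.20 ± 0.30 (SE, adjusted p = 0.000294). Sdc2 and Itga2 passed the filter only through the group with sodium acetate, and without them 11 of 15 receptors tested were higher. Each of these 4 receptors was at or below 1 FPKM in every sample without sodium acetate.

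**Figure D5:**
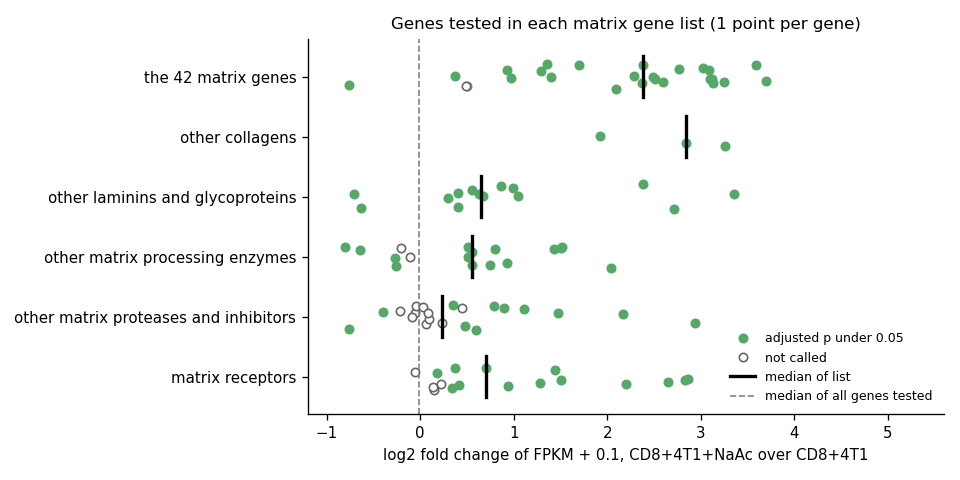
Log2 fold change of FPKM + 0.1 (horizontal axis, CD8+4T1+NaAc over CD8+4T1) for each gene tested, in the 42 matrix genes and 5 other matrix lists. Filled points were called at an adjusted p under 0.05, open points were not, and thick bars are list medians. The median is 2.38 for the 26 of the 42 genes that were tested and 0.55 over the other 72 genes tested.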

How the data were processed

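RNA of purified CD8+ T cells was sequenced in 10 samples, 5 per group. Per the labels and methods, the authors used fastp, HISAT2 2.0.5, StringTie 1.3.3b and featureCounts 1.5.0-p3, and deposited FPKM in 1 column per sample, not pooled. The gene length is another column the authors deposited. The genome build and strand setting are not given in the sources used here. Of 52073 genes shared with GENCODE M21 (GRCm38), 1467 had the same start and end, so positions are printed as deposited. FPKM times gene length gave whole multiples of a step (within 0.1) for 100% of values, from which fragments were recovered.

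The 15710 genes averaging 0.5 FPKM or more were compared on log2(FPKM + 0.1) with limma 3.58.1 (R 4.3.3, variance trend, robust moderation) and Benjamini-Hochberg adjustment over all of them. For low genes, this scale makes the fold change smaller than it is in FPKM. The step was tested on simulated data. Members and lists were chosen with earlier results of these data known. Values of every sample are given for members called with an absolute log2 fold change over 1 or a mean of at least 10 FPKM, and at most 4 called genes, those with the largest change, are named per other list by this rule, beside those said to be named after their values were seen. A gene of the list of other proteases and inhibitors is counted there and is not reported here by name.

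The alternatives were pseudocounts of 1 and 0.01, no filter, a mean of at least 5 FPKM, the same total FPKM, sample weights, median-ratio scaling, a replicate block, plain limma (no trend, no robust moderation), voom on recovered fragments, each sample left out, and replicate 1 of both groups left out.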

Additional observations from a re-analysis of the deposited data

Results flagged for a closer look

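Of 54 groups of 5 values checked, on the log2(FPKM + 0.1) scale for the 26 members tested and as summed FPKM for all 42, 2 had a sample set apart from the others, where 2.7 are expected by chance at 1 in 20. For Col1a2, replicate 2 with sodium acetate was the lowest sample, with a gap of 0.71 of the group's range. For Plod2, replicate 4 without sodium acetate was the lowest sample, with a gap of 0.722 of the range.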

How the results depend on the processing

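With a mean of at least 5 FPKM, 14 matrix genes were tested and 14 called, 13 of them higher, and 3733 genes were called in all, since fewer genes were tested. Without a filter 27 of 40 matrix genes were called, where 5487 of all 32272 genes tested were. The median log2 fold change of the matrix genes tested, 2.38, was 1.52 with 1 FPKM and 2.54 with 0.01 FPKM added before logs, 1.26 over the 40 without a filter, and 2.54 at the same total FPKM. With 1 FPKM added, 1 matrix gene (Fn1) had a log2 fold change over 3 in place of 8. That number was 3 without replicate 2 with sodium acetate, 5 without replicate 1 of CD8+4T1 and 9 without replicate 4 of CD8+4T1. With a replicate block 25 matrix genes and 5399 of all genes were called. The mean correlation was 0.014 between same-numbered samples (-0.028 to 0.069) and -0.003 between samples of different number. Of the 10 samples, 4 correlated best with their own number. With 5 samples per group, these values cannot decide whether samples pair by number. With each sample left out in turn 25 matrix genes were called every time, and all genes called ranged from 4924 to 6930, the latter without replicate 1 with sodium acetate. Of 529 values for single matrix genes, 526 kept direction and side of the threshold and 3, all for Col1a2, passed it. Rescaling to the same total FPKM shifted the median over all genes tested from -0.02 to 0.15 (log2) and the share of higher calls from 48.1% to 77.9% (4900 higher, 1387 lower), and 25 matrix genes were called there too. Of the 16 genes below the filter, Col3a1 and Postn had 0 fragments in all 10 samples, and Col5a2, Bgn, Lox and Dcn had at most 4 in any sample.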
